A study of Mus musculus with 162 samples.

Results

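The comparison described here set 4 skin libraries of mice injected with an anti-Gr1 antibody (aGr1) against 3 of mice injected with PBS, 7 of the 162 libraries of the series. All 7 were cheek skin of wild-type adult male C57BL/6 mice that had received the ethanol vehicle (20 µL once daily on the shaved cheek) and no MC903, taken on day 8. The aGr1 mice were given 250 µg of the antibody intraperitoneally each day from the day before the first ethanol treatment, and the PBS mice the same injections of the solvent. The libraries were chosen by their labels for tissue, genotype, vehicle, day and injection. The question was what the antibody, on its own, changed in skin that carried no MC903-evoked inflammation. Beside them stand the vehicle trigeminal ganglia of the same kinds of mice (4 aGr1 and 3 PBS libraries) and 6 libraries of vehicle skin of uninjected wild-type mice on day 8. The labels do not say that each library was a separate mouse, so p-values measure only the spread between these libraries.

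The Gr-1 antibody binds Ly6G, a surface protein of neutrophils, and also Ly6C, which monocytes and some endothelial and lymphoid cells carry. Neutrophils are short-lived granulocytes that leave the bone marrow through the blood and are scarce in skin without inflammation. The cheek also lies over secretory glands: the parotid gland, whose acinar cells release amylase and other salivary proteins, and the extraorbital lacrimal gland, which makes tear proteins.

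Per library, 22127725 to 29080747 reads were counted on genes in skin and 15931871 to 23922735 in the ganglia. The share of reads that fell on no gene was 9.02 to 11.2% in the aGr1 skin and 13.6 to 15.6% in the PBS skin, with no overlap, and the ganglia were ordered the same way (9.77 to 10.5% and 12.03 to 13.1%). The 20 most counted genes held 31.3, 42.01, 14.02 and 33.8% of the counts of the aGr1 skin libraries 1 to 4, and 9.84, 13.5 and 10.05% of those of the PBS libraries 1 to 3. Levels below are cpm (counts-per-million), scaled by TMM factors of 0.742 to 1.12 for the aGr1 and 1.19 to 1.21 for the PBS libraries, and are given in the order of these library numbers. The scaling matters for these libraries: the median log2 fold change over all tested genes was -0.03 with TMM and -0.47 with library totals alone.

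Genes of salivary secretion set the aGr1 skin libraries apart from the PBS libraries. Of 25219 genes tested, 37 passed an adjusted p of 0.05 (edgeR's quasi-likelihood test with Benjamini-Hochberg adjustment), and all 37 were higher with aGr1 (0.147% of those tested). No gene was lower at that threshold (0%), but this depended on the fit: lower genes were called by DESeq2 (0.478% of those with an adjusted p), with the spread of all 13 vehicle skin libraries (15 genes) and with a replicate block (388 genes). In every one of the 37, the lowest aGr1 library lay above the highest PBS library, which held for 7.81% of all tested genes. The calls rest on few libraries: without any 1 of the PBS libraries, or without aGr1 library 1, 0 genes passed in edgeR, at smallest adjusted p-values between 0.0747 and 0.272. Without aGr1 library 3, which had the least gland signal, 455 genes passed, 439 higher and 16 lower. Whether gland tissue was taken with the skin is not stated in the sources used here, and its part in the 37 calls was not tested.

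Parotid and salivary proteins led these genes. Bpifa2, the parotid secretory protein, stood at 141591, 261113, 26429.6 and 69448 cpm in the aGr1 libraries and at 46.9, 25.2 and 21.6 cpm in the PBS libraries. Every aGr1 library exceeded every PBS library by orders of magnitude, and the aGr1 libraries themselves ran from 26429.6 to 261113 cpm. The log2 fold change was 11.96 ± 1.32 (SE) with an adjusted p of 0.0209. Amy1, salivary amylase, stood at 38886, 91829, 8733 and 23197 cpm with aGr1 and 40.9, 50.4 and 20.8 cpm with PBS (10.09 ± 1.19, adjusted p = 0.0258). Its reads can be shared with the Amy2 copies next to it, so the split between these genes is uncertain. Smr3a, a submandibular gland protein precursor of the opiorphin family, stood at 26065, 47431, 4880.3 and 14574 cpm against 11.4, 6.75 and 4.17 cpm (11.61 ± 1.21, adjusted p = 0.0209). In all 3 genes aGr1 library 2 was highest and aGr1 library 3 lowest. In bulk tissue, fewer cells of a type and less RNA per cell cannot be told apart.

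The gene with the smallest p was Prb1, a proline-rich salivary protein, at 678, 1307, 123.9 and 407 cpm with aGr1 and 0.199, 0.0665 and 0.0978 cpm with PBS (12.26 ± 1.15, adjusted p = 0.0209). Dnase1, the secreted deoxyribonuclease, stood at 5827, 9183, 927 and 3789.8 cpm against 4.04, 2.99 and 2.67 cpm (10.57 ± 1.03). Cst10, a cystatin protease inhibitor, stood at 2747, 5159.8, 509.9 and 1464 cpm against 1.22, 0.731 and 0.554 cpm (11.51 ± 1.13). The unnamed genes 2310057J18Rik and BC037156 were of the same kind in their pattern: the lowest aGr1 values were 1943 and 477 cpm and the highest PBS values 5.16 and 0.968 cpm. Dcpp1, Dcpp2 and Dcpp3, near-identical demilune cell and parotid proteins that can share reads, had log2 fold changes of 12.11 ± 1.27, 12.04 ± 1.19 and 11.67 ± 1.19. Klk1, tissue kallikrein, was counted 17724, 17140, 1872 and 4354 times with aGr1 and 0, 0 and 3 times with PBS, so that it was at least 5060-fold higher with aGr1 against a floor of 3 counts per library.

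The order of the aGr1 libraries was not the same in every called gene: all 37 were lowest in library 3, 33 were highest in library 2, and 4 (Lpo, Wfdc12, Bhlha15 and Ccl28) were highest in library 4. Pip, a secreted protein of saliva, tears and sweat, stood at 9859, 11249, 1011 and 10590.5 cpm with aGr1 and 3.9, 2.46 and 1.4 cpm with PBS (11.62 ± 1.22, adjusted p = 0.0209), and library 4 lay between libraries 1 and 2. Wfdc12, a protease inhibitor with a whey acidic protein fold, stood at 860.3, 1027, 110.3 and 1146 cpm against 0.684, 1.33 and 0.815 cpm (9.70 ± 1.010). Lpo, lactoperoxidase, an antibacterial enzyme of saliva and tears, stood at 602, 1069, 99.3 and 1728 cpm against 0.655, 0.632 and 0.359 cpm (10.62 ± 1.19, adjusted p = 0.0209).

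**Figure D1:**
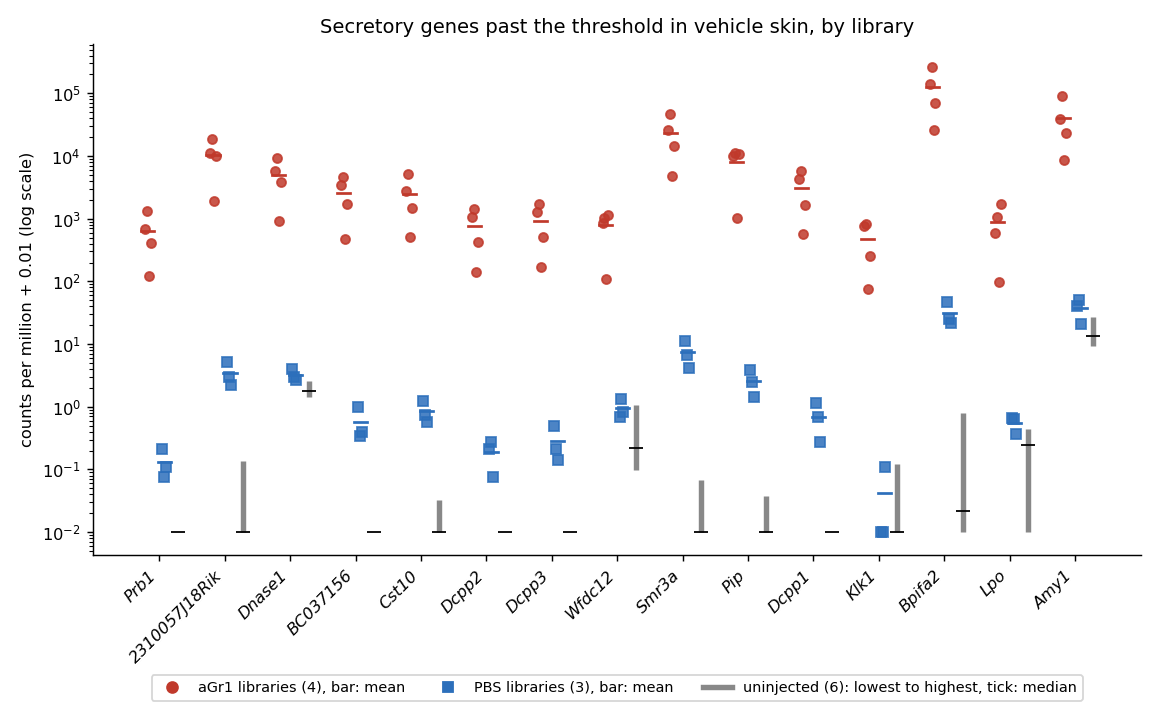
Counts-per-million plus 0.01 on a log axis for 15 secretory genes past the threshold in vehicle skin. Points are the 4 aGr1 and 3 PBS libraries with bars at their means, and grey bars span the 6 uninjected libraries, scaled over all 13 vehicle skin libraries. For every gene the 4 aGr1 points lie above the 3 PBS points, which was a condition of choice for 12 of the 15.

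The other called genes, named here after their values were seen, were Amy2b and Amy2a1 to Amy2a5 (pancreatic-type amylase copies), Chia1 (acidic chitinase), Scgb1b27 and Scgb2b27 (secretoglobins), Klk1b5 (a glandular kallikrein), Oit1, Gm8882, Gm4736 and A630073D07Rik, then genes of the secretory cell itself. Among the latter, Bhlha15, a transcription factor of serous secretory cells, stood at 126.5, 207, 18.5 and 309 cpm with aGr1 and 0.228, 0.665 and 0.587 cpm with PBS (8.39 ± 1.10, adjusted p = 0.0396). Pigr, the receptor that carries IgA into secretions, stood at 179, 317, 30.3 and 283 cpm against 1.17, 2.49 and 1.7 cpm (6.82 ± 0.89, adjusted p = 0.0373). Ccl28, a mucosal chemokine, stood at 47.5, 81.9, 8.52 and 103 cpm against 0.627, 0.565 and 0.359 cpm (6.84 ± 0.92, adjusted p = 0.0435). The remaining ones were Pax9 (a transcription factor), Kcnn4 (a potassium channel), Gjb1 (a gap junction protein), Derl3 (a protein of the endoplasmic reticulum) and Cxcl17 (a mucosal chemokine). Over the 37, log2 fold changes ran from 6.44 to 13.68 with a median of 10.59, or 10.09 with the 6 genes whose PBS libraries all held 3 counts or fewer set at their lower bounds.

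Promoters are shown for the 12 called genes with the smallest p, chosen also for no overlap between aGr1 and PBS. A level above every PBS library was thus set by the choice. All 12 were lowest in aGr1 library 3 among the aGr1 libraries. The stretches are the 60 bases before the start of each gene (RefSeq, GRCm38.p6), read along the gene's own strand from 5′ to 3′, with the letters TATAA in capitals:
Prb1 (chr6:132210522-132210581, minus strand): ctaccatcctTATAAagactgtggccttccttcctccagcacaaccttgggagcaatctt
2310057J18Rik (chr10:28986307-28986366, minus strand): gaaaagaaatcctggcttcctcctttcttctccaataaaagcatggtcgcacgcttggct
Dnase1 (chr16:4036976-4037035, plus strand): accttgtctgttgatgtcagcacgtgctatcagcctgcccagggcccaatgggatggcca
BC037156 (chr5:87908719-87908778, plus strand): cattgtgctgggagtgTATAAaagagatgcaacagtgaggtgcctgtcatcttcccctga
Cst10 (chr2:149405189-149405248, plus strand): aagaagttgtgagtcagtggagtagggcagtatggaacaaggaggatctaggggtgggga
Dcpp2 (chr17:23898662-23898721, plus strand): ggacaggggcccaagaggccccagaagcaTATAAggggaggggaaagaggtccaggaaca
Dcpp3 (chr17:23917398-23917457, plus strand): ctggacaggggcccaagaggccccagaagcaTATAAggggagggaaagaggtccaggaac
Wfdc12 (chr2:164190559-164190618, minus strand): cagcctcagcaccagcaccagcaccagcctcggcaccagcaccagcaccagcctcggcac
Smr3a (chr5:88002465-88002524, plus strand): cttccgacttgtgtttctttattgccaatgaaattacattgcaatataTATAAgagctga
Pip (chr6:41847489-41847548, plus strand): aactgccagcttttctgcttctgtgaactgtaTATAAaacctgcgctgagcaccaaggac
Dcpp1 (chr17:23880816-23880875, plus strand): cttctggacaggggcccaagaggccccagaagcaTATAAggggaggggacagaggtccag
Klk1 (chr7:44225300-44225359, plus strand): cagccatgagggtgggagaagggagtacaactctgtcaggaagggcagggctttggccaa

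TATAA, the core letters of a TATA box, was searched on the gene's own strand only and occurred in 7 of these 12 stretches. It occurred in 14 of the 36 called genes with a promoter in the table (38.9%) and in 1621 of all 27025 genes with one (6.00%), the first listed promoter being taken. The 3 Dcpp stretches are nearly the same sequence shifted by a few bases and are not separate observations. The motif was chosen after the genes were known, so the shares are a description.

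The 37 genes together held 24.4, 37.7, 5.53 and 11.1% of all counts in the aGr1 libraries 1 to 4 and 0.0159, 0.0127 and 0.00768% in the PBS libraries 1 to 3. In uninjected vehicle skin they held 0.00176 to 0.00415%. Some of the genes stood in nearly the same proportion to Bpifa2 in each aGr1 library and others did not. Per 100 counts of Bpifa2 there were 18.4, 18.2, 18.5 and 20.99 counts of Smr3a in the aGr1 libraries, although Bpifa2 itself ranged from 2.96 to 19.8% of their counts. In the PBS libraries the same ratio was 24.2, 26.7 and 19.3. Cst10 had 1.94, 1.98, 1.93 and 2.11 counts per 100 of Bpifa2 with aGr1, and 2.61, 2.90 and 2.56 with PBS. Lpo had 0.425, 0.409, 0.376 and 2.49 counts per 100 of Bpifa2, and Pip 6.96, 4.31, 3.82 and 15.2, library 4 standing apart from the other aGr1 libraries in both. Amy1 had 27.5 to 35.2 with aGr1 and 87.1 to 200 with PBS, and it was also present in uninjected skin, at 9.45 to 27.4 cpm.

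**Figure D2:**
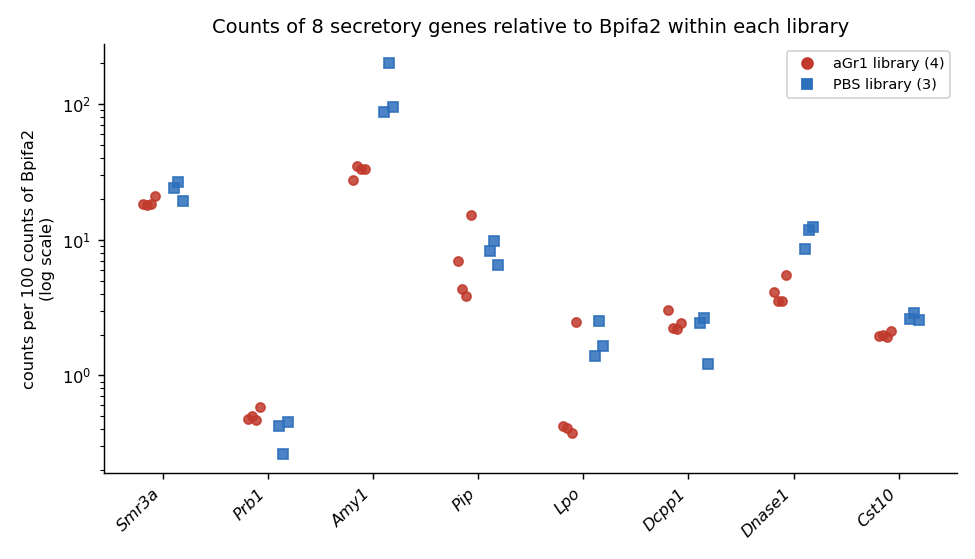
Counts of 8 secretory genes per 100 counts of Bpifa2 in the same library, on a log axis, for the 4 aGr1 and 3 PBS libraries. Smr3a, Prb1, Dcpp1 and Cst10 lie within narrow bands in the aGr1 libraries, and Lpo and Pip are highest in 1 aGr1 library (2.49 and 15.2).

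Some of these genes were also counted at low levels in the PBS libraries, and 6 of the 37 had 3 counts or fewer in each. Bpifa2 stood at 21.6 to 46.9 cpm in the PBS libraries and at 0 to 0.792 cpm in uninjected skin. The names of the deposited files place the aGr1 and PBS skin libraries on the same sequencing lane and the uninjected ones on others. The part of the lane in these levels was not tested. In the ganglia, on another lane, Bpifa2 stood at 0 to 0.381 cpm with aGr1 and 0.0987 to 4.24 cpm with PBS.

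aGr1 library 4 also held transcripts of a group of secreted proteins that were far lower in the other libraries. After their values were seen, genes above 200 cpm in 1 library and at least 10 times higher there than in each of the other 6 were counted: 40 such genes in aGr1 library 4, 1 in aGr1 library 1 and 0 in each of the other 5 libraries. The 40 summed to 364345 cpm. They included Obp1a, an odorant-binding lipocalin, at 103, 19.9, 4.69 and 49141 cpm with aGr1 and 2.82, 7.61 and 1.92 cpm with PBS. Mucl2, a mucin-like gene, stood at 53.8, 9.24, 2.14 and 46232 cpm against 3.28, 6.85 and 1.24 cpm. Scgb2b2, a secretoglobin of the androgen-binding protein family whose copies share reads, stood at 20.5, 5.44, 0.848 and 20889.7 cpm against 1.22, 2.63 and 0.489 cpm. Esp15 and Esp16, peptides secreted by the lacrimal glands, stood at 6469.7 and 5813 cpm in library 4 and at or below 4.89 cpm elsewhere. None of these 40 passed the test. The single gene of aGr1 library 1 was Ucp1, the uncoupling protein of brown fat, at 305, 30.4, 3.11 and 0.235 cpm against 0.057, 0.166 and 0.0978 cpm.

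Transcripts of the antibody's targets did not separate the groups. Ly6g, which encodes Ly6G, had 0 counts in each aGr1 library and 1, 0 and 0 counts in the PBS libraries, below the minimum of 10 counts for a test; a count of 0 allows up to 3. The uninjected skin had at most 1 count. Ly6c1, which encodes an Ly6C protein, stood at 60.4, 60.6, 70.7 and 64.6 cpm with aGr1 and 46.7, 81.1 and 35.999 cpm with PBS (0.23 ± 0.26, adjusted p = 0.65). Ly6c2, the Ly6C gene of monocytes, stood at 17.1, 14.05, 15.1 and 14.4 cpm against 9.57, 14.2 and 7.17 cpm (0.56 ± 0.24, adjusted p = 0.283). The groups overlapped in both, and with library totals alone the sign of Ly6c1 turned (-0.20).

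Most neutrophil genes were low in both groups. Of 26 genes on the list, 21 could be tested, 0 passed in either direction in edgeR, 3 were higher and 0 lower at an unadjusted p under 0.05 (10.7 and 6.65% of all genes), 3 were higher and 0 lower without overlap (7.81 and 6.07%), and DESeq2 called 1 higher (4.38%) and 0 lower. Their median log2 fold change was -0.01, against -0.03 over all genes. The members with the highest level were Asprv1, at 292, 314, 535 and 434 cpm against 451, 418 and 462 cpm (-0.17 ± 0.25, adjusted p = 0.737), and Il1r2, the decoy receptor of IL-1, at 41.7, 42.9, 56.5 and 60.3 cpm against 51.2, 67.1 and 33.2 cpm (-0.01 ± 0.25, adjusted p = 0.992). Both are made in epidermis as well, and Il1r2 changed sign with some settings. The members without overlap, named after their values were seen, were Clec4e, a lectin receptor of myeloid cells, Fpr2, a formyl peptide receptor, and Csf3r, the receptor for G-CSF. Clec4e, the gene DESeq2 called, was counted 19, 11, 8 and 3 times with aGr1 and 1, 1 and 3 times with PBS (edgeR adjusted p = 0.185). Fpr2 and Csf3r had 1.34 ± 0.58 and 0.33 ± 0.23 (adjusted p = 0.284 and 0.462).

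Other members, also picked after their values were seen, overlapped between the groups. S100a8, a calgranulin subunit, stood at 1.62, 0.914, 8.16 and 3.4 cpm with aGr1 and 5.47, 2.73 and 11.6 cpm with PBS (-0.90 ± 0.73, adjusted p = 0.527). S100a9, its partner, stood at 0.638, 0.674, 4.2 and 1.76 cpm against 1.14, 1.46 and 1.7 cpm (0.35 ± 0.64, adjusted p = 0.79). Retnlg, a neutrophil resistin-like protein, was counted 3, 2, 5 and 1 times against 2, 14 and 1 times. Cxcr2, the receptor for neutrophil chemokines, stood at 6.72, 5.05, 4.52 and 2.99 cpm against 3.99, 7.38 and 4.21 cpm (-0.10 ± 0.33, adjusted p = 0.888). Trem1, Trem3, Fpr1, Acod1 and Mrgpra2b had too few counts for a test, and Mrgpra2b had none in all 7 libraries. For the members with few counts, a loss of neutrophil RNA was not detectable at this depth. Whether a loss was missed in better counted members, such as Cxcr2, was not tested.

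The highest level of neutrophil precursor granule genes was in 1 library, without a gene past the threshold. Their summed level was 9.65, 8.95, 6.7 and 258 cpm with aGr1 and 5.21, 5.25 and 2.8 cpm with PBS. Ltf, lactoferrin, which tear and salivary glands also secrete, made up nearly all of the level in library 4, at 0.51, 0.866, 0.121 and 249.9 cpm against 0.228, 0.0997 and 0 cpm (9.05 ± 3.20, adjusted p = 0.241). Lcn2, lipocalin-2, an iron-trapping protein of neutrophils and epithelia, stood at 4.81, 4.81, 2.46 and 6.86 cpm against 2.28, 1.99 and 1.43 cpm, with no overlap (1.31 ± 0.36, adjusted p = 0.214). Elane, Camp and Ngp had at most 9 counts in any library.

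**Figure D3:**
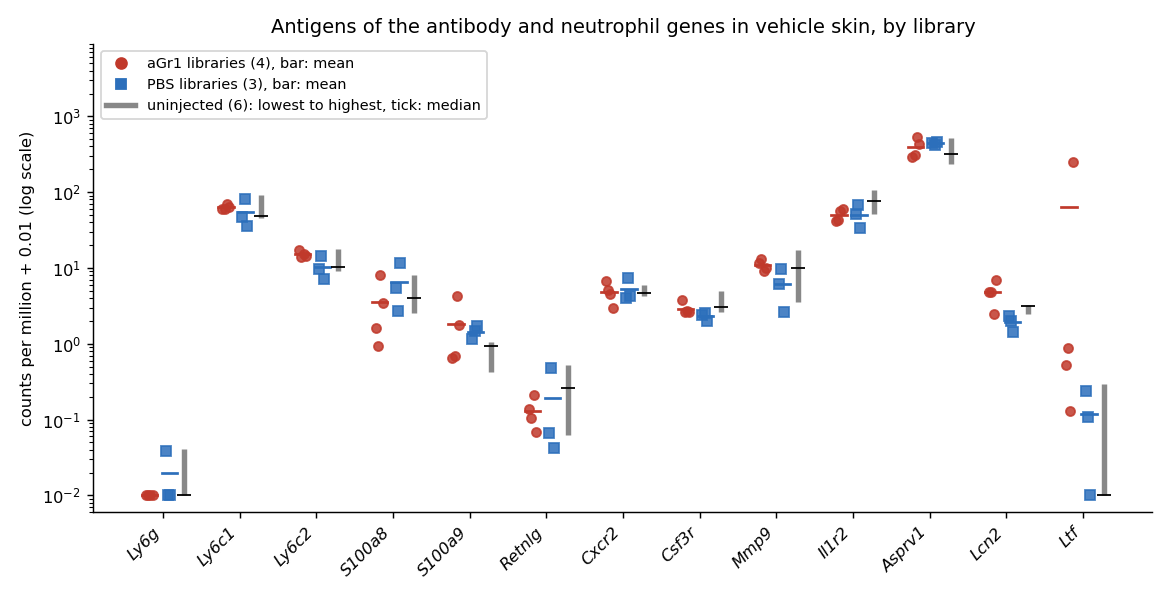
Counts-per-million plus 0.01 on a log axis for the antigens of the antibody, neutrophil genes and granule genes in vehicle skin. Points are the 4 aGr1 and 3 PBS libraries with bars at their means, and grey bars span the 6 uninjected libraries. The groups overlap for Ly6c1, Ly6c2, S100a8 and S100a9, Ly6g lies at or near 0, and Ltf is high in 1 aGr1 library (249.9 cpm).

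Lymphocyte genes were higher in aGr1 libraries 1 and 2, without passing the test. All 11 genes of the B cell and plasma cell list had a positive log2 fold change and an unadjusted p under 0.05, which held for 10.7% of all tested genes in that direction. In 9 of the 11 the groups did not overlap (7.81% of all genes). The median was 7.36, or 7.03 with genes at the PBS floor set at their bounds, and 0 passed in edgeR (smallest adjusted p = 0.136) while DESeq2 called all 11 (4.38% of the genes with an adjusted p were called higher by DESeq2). Their summed level was 1280.1, 715, 83.6 and 64.9 cpm with aGr1 and 24.4, 33.3 and 15 cpm with PBS. Igkc, the kappa light chain, stood at 330.0, 185, 17.7 and 23.9 cpm against 1.94, 1.2 and 0.457 cpm (6.85 ± 1.32, adjusted p = 0.136). Ighm, the IgM heavy chain, stood at 348, 225, 38.4 and 28.7 cpm against 19, 26.7 and 11.4 cpm (3.07 ± 0.91, adjusted p = 0.217). Both were highest in library 1 and next in library 2, and libraries 3 and 4 lay nearer to PBS.

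Salivary gland genes moved beside them: the 8 genes of the salivary gland list summed to 191141, 365625, 36307 and 105359 cpm with aGr1 and 93.5, 81.5 and 45.5 cpm with PBS. Of these 8, 7 were tested, all 7 were higher at an unadjusted p under 0.05 (10.7% of all genes) and 5 passed (0.147% of all genes). The list was chosen with earlier results of these data known. Prol1, a secreted proline-rich protein, was at 0 counts in every PBS library and at least 121.4-fold higher with aGr1. Smr2 had 1 count in all 7 libraries together. On the salivary gland list the highest aGr1 libraries, 2 and 1, were also the ones with the most lymphocyte signal. Library 4 exceeded library 3 on that list and not in the summed B cell genes. The 40 secreted-protein and other genes high in library 4 alone, 364345 cpm together, are not on that list. With them counted, the order of gland signal would not follow that of the lymphocyte genes. The part of gland and lymphoid tissue in these differences was not tested.

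T cell genes followed the same order. All 19 were positive, 14 had an unadjusted p under 0.05, 7 did not overlap, 0 passed and DESeq2 called 7 higher, beside 10.7, 7.81 and 4.38% of all genes for the unadjusted p, the lack of overlap and DESeq2. Their summed level was 228, 182, 65.4 and 51.5 cpm with aGr1 and 41.7, 63.2 and 35.9 cpm with PBS, with a median log2 fold change of 1.94. The constant chains of the T cell receptor beta locus, Trbc2 and Trbc1, which can share reads, stood at 27.8, 21.3, 14.7 and 13.3 cpm against 9.8, 18.5 and 9.33 cpm and at 19.4, 13.2, 6.54 and 3.99 cpm against 4.04, 6.58 and 3.72 cpm, overlapping in both (0.62 ± 0.34 and 1.18 ± 0.52). Natural killer genes summed to 21.3, 17.03, 6.99 and 7.27 cpm against 4.7, 8.11 and 3.62 cpm. Of these 9 genes, 6 were under an unadjusted p of 0.05 (10.7% of all genes), 0 passed in edgeR and DESeq2 called 2 higher (4.38%). In 4 of the 9 the groups did not overlap (7.81% of all genes), and the median log2 fold change was 1.96. The members with the highest level, Klrd1 and Nkg7, a lectin receptor and a granule protein, lay below that median. They had log2 fold changes of 0.64 ± 0.45 and 0.76 ± 0.39.

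Antigen-presenting and myeloid genes were mostly positive as well, again with 0 past the threshold in edgeR. DESeq2 called 4 of the 10 MHC class II and 3 of the 15 macrophage genes higher. It also called 3 of the 12 Langerhans and dendritic cell genes and 2 of the 10 inflammatory monocyte genes higher. Of all genes with an adjusted p, DESeq2 called 4.38% higher. The 10 MHC class II genes all had an unadjusted p under 0.05 (10.7% of all genes), with a median of 1.18, but only 1 did not overlap (7.81%). Cd74, the invariant chain, stood at 965, 757, 383 and 362 cpm against 261, 369 and 147 cpm (1.25 ± 0.46, adjusted p = 0.248), and H2-Aa, a class II alpha chain, at 424, 341, 178 and 178 cpm against 125.8, 192 and 74.8 cpm (1.10 ± 0.43, adjusted p = 0.261). All 15 macrophage genes were positive and 9 did not overlap (7.81% of all genes). Csf1r, the receptor for macrophage growth factor, stood at 122.8, 108, 76.6 and 78.6 cpm against 57.2, 58.1 and 30.5 cpm (0.99 ± 0.28, adjusted p = 0.214), and Mrc1, the mannose receptor, at 138, 128.3, 127.8 and 125.4 cpm against 97.3, 117.8 and 55.2 cpm (0.53 ± 0.24, adjusted p = 0.3). Of 12 Langerhans and dendritic cell genes 10 were positive and 1 did not overlap. The members of that list with the highest level were Cd24a, a surface glycoprotein also made by epithelia (1.32 ± 0.35, adjusted p = 0.213), and Mgl2, a dendritic cell lectin (0.27 ± 0.29, adjusted p = 0.648). Of 10 inflammatory monocyte genes 9 were positive, with a median of 0.66. Of the 10, 4 were higher at an unadjusted p under 0.05 (10.7% of all genes) and 3 without overlap (7.81%). The members with the highest level lay below the median: Hp, haptoglobin (0.50 ± 0.38), and F13a1, a clotting factor subunit (0.43 ± 0.22).

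Complement and interferon genes had medians of 0.67 and 0.87, with 0 past the threshold in edgeR. DESeq2 called 4 of the 15 Fc receptor and complement genes and 7 of the 38 interferon-induced genes higher (4.38% of the genes with an adjusted p). C3, the central complement component, stood at 698, 671, 403 and 402 cpm with aGr1 and 265, 250.5 and 116.998 cpm with PBS, with no overlap (1.37 ± 0.37, adjusted p = 0.214). C4b, a complement component of the classical pathway, stood at 321, 247, 228 and 228 cpm against 187, 204 and 117.3 cpm, with no overlap (0.59 ± 0.24, adjusted p = 0.271). Of 15 Fc receptor and complement genes 9 did not overlap (7.81% of all genes). All 38 interferon-induced genes were positive, 20 had an unadjusted p under 0.05 (10.7% of all genes) and 8 did not overlap (7.81%). Ifi27l2a, an interferon-induced membrane protein, stood at 313, 473, 145 and 194 cpm against 74.8, 182 and 27.1 cpm (1.57 ± 0.65, adjusted p = 0.277), and Tap1, the peptide transporter, at 66.2, 73.3, 50.4 and 41.4 cpm against 42.6, 58.8 and 37.9 cpm (0.32 ± 0.24, adjusted p = 0.49). For Ifi27l2a, aGr1 library 2 was highest and PBS library 2 lay among the aGr1 libraries.

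**Figure D4:**
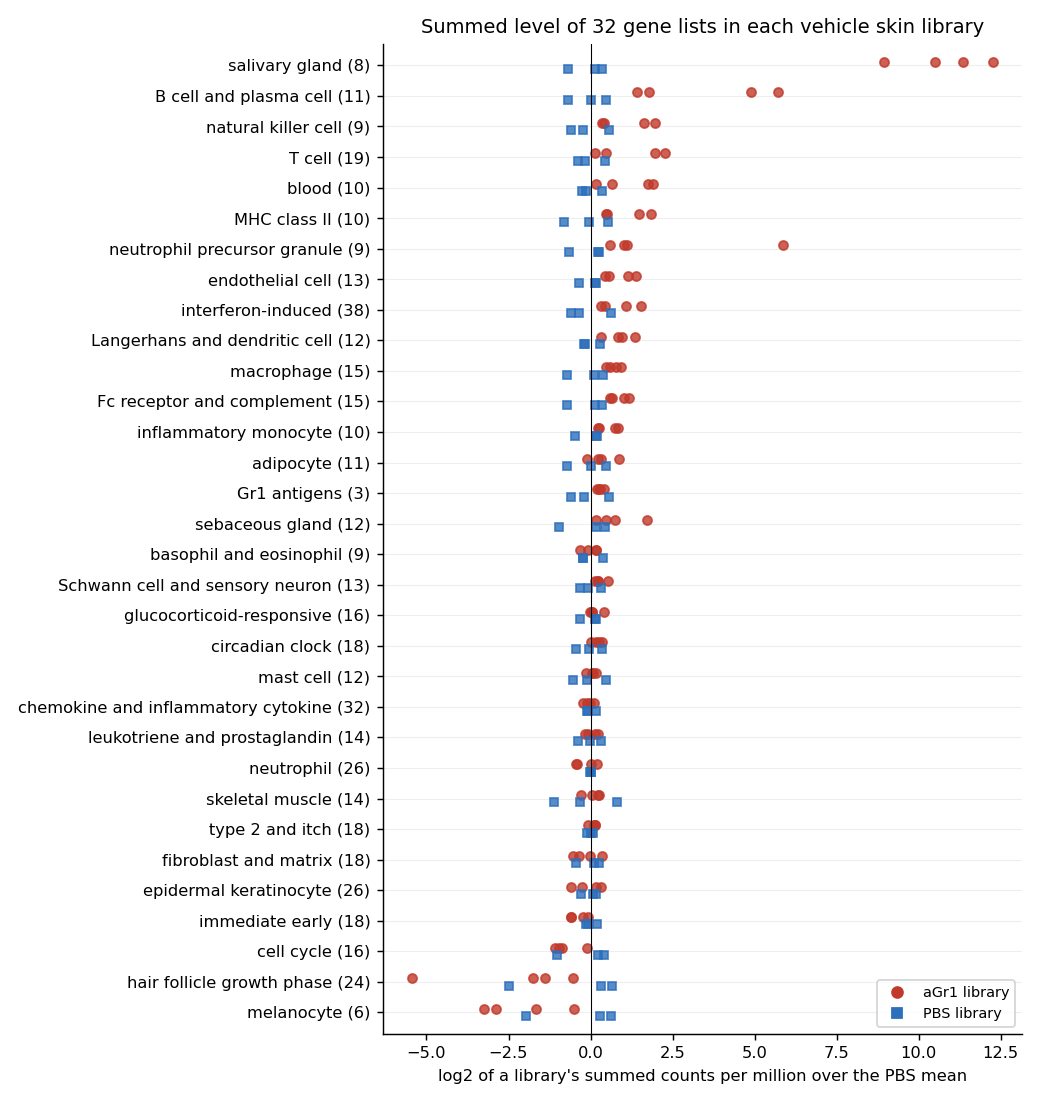
Summed counts-per-million of each of 32 gene lists in each vehicle skin library, as the log2 ratio to the mean of the 3 PBS libraries, with the number of genes per list in brackets. Lists are ordered by median log2 fold change; the salivary gland list lies farthest to the right, the B cell and plasma cell list is next, and the neutrophil precursor granule list has 1 aGr1 library far above the other 3.

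Vessel and blood genes were higher at unadjusted thresholds, with 0 past the threshold in edgeR. DESeq2 called 5 of the 13 endothelial and 5 of the 10 blood genes higher (4.38% of the genes with an adjusted p). Of 13 endothelial genes 10 had an unadjusted p under 0.05 (10.7% of all genes) and 8 did not overlap (7.81%). Pecam1, an endothelial junction protein, stood at 95.3, 79.1, 49.9 and 45.3 cpm against 35.6, 38.6 and 27.3 cpm (0.995 ± 0.28, adjusted p = 0.214), and Flt1, a VEGF receptor, at 52.9, 43.8, 33.04 and 32.4 cpm against 26.6, 31.5 and 16.8 cpm (0.70 ± 0.26, adjusted p = 0.253). The hemoglobin genes Hbb-bs and Hba-a2, with near-identical copies, had log2 fold changes of 1.22 ± 0.46 and 1.5 ± 0.44, and aGr1 libraries 2 and 4 were highest in both.

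The medians of the chemokine, itch and lipid mediator lists lay near 0, with members from -1.63 to 1.66, from -1.66 to 1.82 and from -1.23 to 0.69. Over all genes, 10.7% were higher and 6.65% lower at an unadjusted p under 0.05. Of 29 chemokine and inflammatory cytokine genes tested, 3 were higher and 1 lower there, with a median of 0.09 and 0 past the threshold. Cxcl12, a stromal chemokine, had 0.09 ± 0.17 and Cxcl14, an epithelial chemokine, -0.68 ± 0.30. Of 17 type 2 and itch genes tested, 2 were higher and 0 lower at that unadjusted p, near the share over all genes, and 0 passed. Il13ra1, a receptor subunit for IL-4 and IL-13, had -0.06 ± 0.17 and F2rl1, the protease receptor PAR2, -0.51 ± 0.26. Of 14 leukotriene and prostaglandin genes 0 were higher and 1 lower; Ptgs1, cyclooxygenase-1, had 0.15 ± 0.30 and Lta4h, which makes leukotriene B4, 0.12 ± 0.12. DESeq2 called 1, 2 and 0 genes of these lists, all higher (4.38% of the genes with an adjusted p were called higher by DESeq2). Il17a and Il31 had 0 counts in all 7 libraries, and Csf2 and Csf3 too few for a test.

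Of 12 mast cell genes, 0 had an unadjusted p under 0.05, and the groups overlapped in all 12. Mcpt4, a connective tissue mast cell protease, stood at 28.3, 33.4, 38.2 and 35.5 cpm against 28.1, 47.3 and 17.9 cpm (0.12 ± 0.30), and Kit, the stem cell factor receptor, at 25.05, 30.8, 23.9 and 20.6 cpm against 33.4, 12.03 and 32.4 cpm (-0.05 ± 0.33). Of 7 basophil and eosinophil genes tested, 1 was higher at that threshold (10.7% of all genes) and 0 passed. Cd200r3, a basophil and mast cell receptor, had -0.33 ± 0.22 and Il3ra, the IL-3 receptor alpha chain, 0.30 ± 0.23.

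Genes of the growing hair follicle were lower by fitted value but spread widely within both groups. All 24 were negative, between -1.75 and -1.26, with 0 under an unadjusted p of 0.05, 0 past the threshold in edgeR or DESeq2, and 0 without overlap (6.07% of all genes were lower without overlap). Their summed level was 5869, 459.9, 13776 and 7544 cpm with aGr1, 24586, 3520.4 and 31613 cpm with PBS and 18788 to 85924 cpm in uninjected skin. aGr1 library 2 was lowest of all, and PBS library 2 lay below 3 of the aGr1 libraries. Tchh, trichohyalin of the inner root sheath, stood at 1990.2, 165, 4181 and 2375 cpm against 8007, 1060.1 and 10110.5 cpm (-1.55 ± 0.98, adjusted p = 0.417). Krt71, an inner root sheath keratin, stood at 829, 58.5, 1740.3 and 977 cpm against 3316, 414 and 3710.2 cpm (-1.46 ± 0.99, adjusted p = 0.446).

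Melanocyte and cell cycle genes had the same order of libraries in the PBS group, library 2 lowest. The 6 melanocyte genes were all negative (median -1.71, 2 under an unadjusted p of 0.05, beside 6.65% of all genes lower there). Dct, a melanin enzyme, stood at 8.93, 7.55, 52.7 and 23.5 cpm against 86.9, 20.0 and 114.5 cpm (-1.67 ± 0.76, adjusted p = 0.299), and Tyrp1, another, at 4.38, 2.84, 38.5 and 13.8 cpm against 65.7, 8.21 and 83.7 cpm (-1.82 ± 0.96, adjusted p = 0.349). The 16 cell cycle genes were all negative (median -0.82, 2 under an unadjusted p of 0.05, beside the same 6.65% of all genes). Mki67, the Ki-67 antigen, stood at 93.2, 63.03, 159 and 71.8 cpm against 242, 51.9 and 267 cpm (-0.95 ± 0.53, adjusted p = 0.369), and Top2a, a topoisomerase, at 51.6, 37.8, 92.6 and 43.5 cpm against 125.7, 41.5 and 143 cpm (-0.88 ± 0.45, adjusted p = 0.333). None passed in edgeR or DESeq2, and the groups overlapped in every gene of both lists.

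Of 18 immediate early genes, which neurons and other cells switch on within minutes of a stimulus, 16 were negative, 3 were lower and 2 higher at an unadjusted p under 0.05 (6.65 and 10.7% of all genes), and 4 were lower without overlap (6.07%). Egr1, a zinc finger factor, stood at 28.2, 22.8, 61.03 and 45.4 cpm with aGr1 and 77.3, 77.6 and 85.4 cpm with PBS, with no overlap (-1.03 ± 0.31, adjusted p = 0.222). Klf4, a factor also high in epidermis, stood at 187, 201, 334 and 302 cpm against 315, 385 and 272 cpm (-0.34 ± 0.26, adjusted p = 0.502). DESeq2 called 1 higher and 0 lower.

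In the resident tissue of the skin, 0 genes of the lists passed in edgeR. Epidermal keratinocyte genes summed to 9774, 12358, 18176 and 16312 cpm with aGr1 and 15448, 16582 and 11944 cpm with PBS, so that the labelled tissue was present in every library. Of these 26 genes, 0 were higher and 2 lower at an unadjusted p under 0.05 (10.7 and 6.65% of all genes). Krt10 and Krt77, suprabasal keratins, had log2 fold changes of 0.21 ± 0.41 and 0.20 ± 0.39. Fibroblast and matrix genes had a median of -0.07 (Col3a1 0.01 ± 0.33, Col1a2 -0.24 ± 0.36, both collagens) and skeletal muscle genes of -0.05 (Myh4 0.32 ± 0.41, Acta1 0.01 ± 0.49, myosin and actin of fast muscle). Sebaceous genes summed to 11464, 4837, 3882 and 5787 cpm against 4687, 3926 and 1795 cpm, and the lipid enzymes Scd1 and Fasn had 0.83 ± 0.54 and 1.55 ± 0.55, library 1 being highest in both. Adipocyte genes had a median of 0.42, with Car3 at 0.35 ± 0.38 and Fabp4 at 0.03 ± 0.36.

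Clock, glucocorticoid-responsive and nerve genes had medians of 0.12, 0.16 and 0.16, with 0 past the threshold in edgeR. Tef and Nr1d2, output genes of the clock, had 0.28 ± 0.26 and 0.13 ± 0.28. Glul, glutamine synthetase, and Cdkn1a, a cell cycle inhibitor, had 0.55 ± 0.31 and -0.58 ± 0.29. Mbp, a myelin gene, had 0.24 ± 0.24. In each of these 5 the groups overlapped. Among all members tested, 3 of 18 clock, 0 of 16 glucocorticoid-responsive and 2 of 12 nerve genes were higher without overlap (7.81% of all genes). The nerve genes ran from -1.33 to 4.25. DESeq2 called 1 nerve gene higher (4.38% of the genes with an adjusted p) and 0 genes of the other lists named here.

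No gene fell with aGr1 at the threshold, where edgeR's quasi-likelihood test left 1678 lower genes at an unadjusted p under 0.05 (6.65%) and DESeq2 called 0.478% of the genes to which it gave an adjusted p. The 10 lower genes with the smallest p are given as not passing, with adjusted p-values of 0.131 to 0.171. Crybb3, a crystallin, stood at 0.425, 0.385, 0.687 and 0.469 cpm against 1.34, 1.83 and 1.37 cpm (-1.60 ± 0.30). Tcf7l2, a transcription factor of Wnt signalling, stood at 15.4, 16.4, 19.7 and 15.8 cpm against 27.2, 27.3 and 27.2 cpm (-0.69 ± 0.14). Carf, a calcium-responsive transcription factor, stood at 11.7, 12.1, 12.4 and 12.7 cpm against 18.8, 17.7 and 20.2 cpm (-0.63 ± 0.13). The groups did not overlap in any of the 10, which were picked for their small p (6.07% of all genes were lower without overlap). The others were transcripts with little known function: Gm42959, Gm10061, E030032P16Rik, B230334C09Rik, Gm42566, Gm21917 and Gm37720, with log2 fold changes from -2.70 to -0.79. The annotation lists B230334C09Rik and Gm21917 as antisense, and without a stated strand of counting their reads cannot be told apart from those of the genes they overlap. The lower share of reads off genes in the aGr1 libraries moves with these differences; its part was not tested.

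**Figure D5:**
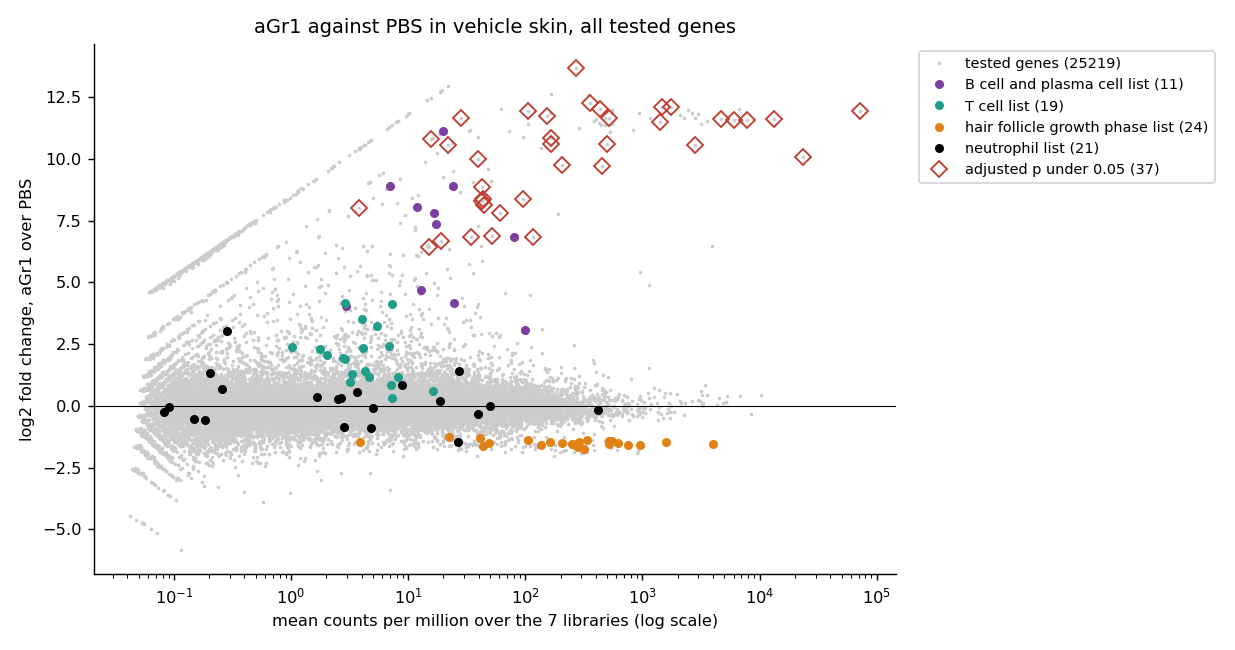
Log2 fold change of aGr1 over PBS against the mean counts-per-million of the 7 vehicle skin libraries (log axis) for 25219 tested genes. Diamonds mark the 37 genes past the threshold, all at 6.44 or above, and filled points 4 of the gene lists; fold changes of genes with few PBS counts depend on the prior count of the fit.

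In the trigeminal ganglia of vehicle mice the same injections went with other differences. There 2075 of 23802 genes were higher (8.72%) and 1547 lower (6.5%) at an adjusted p under 0.1, and the replicates were tighter (a biological coefficient of variation of 0.116, against 0.353 in skin). Of the 37 skin genes, 20 could be tested in the ganglia and 0 passed there in edgeR. Bpifa2 had a log2 fold change of -3.00 ± 1.14 in the ganglia, Amy1 of 0.08 ± 0.13 and Dnase1 of 0.05 ± 0.13. Ly6c1 had 0.34 ± 0.10 there, with an adjusted p of 0.0625.

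A test of the difference itself, skin effect minus ganglion effect over the 14 libraries, was past an adjusted p of 0.05 for 805 of 27297 genes (2.95%). Of the 37 skin genes, 22 passed it. These genes had been picked by their difference in the same skin libraries. Only 20 of them had enough counts for a test in the ganglia alone. The count of 22 is therefore a description and no separate support. The difference was 14.86 ± 1.87 for Bpifa2 (adjusted p = 0.00419), 9.94 ± 0.91 for Amy1 (adjusted p = 0.000285) and 7.85 ± 1.45 for Igkc (adjusted p = 0.0194). The Bpifa2 value includes its negative fold change in the ganglia, where its levels were low. Prb1 and Pip, which had no count in any ganglion library, did not pass it (adjusted p = 1 for each). Neither Ly6c1 nor Ly6c2 passed (adjusted p = 0.812 and 0.796).

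Set against uninjected vehicle skin in place of PBS, the aGr1 libraries differed at 11639 genes, but injection and sequencing lane cannot be told apart there. All 37 genes were among them. Of the 37, 15 had at most 3 counts in each of the 6 uninjected libraries.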

How the data were processed

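RNA of homogenised cheek skin and trigeminal ganglia was poly(A)-selected and sequenced. The authors mapped reads to the mm10 mouse genome with TopHat2 and Bowtie2, as the submitters' processing notes name them, and deposited one file of raw HTSeq counts per gene for each library; versions and the strand setting are not given in the sources used here. Each file listed 46078 genes, of which 45229 matched GENCODE mouse release 21 (GRCm38). Tallies of unassigned reads, of which those on no gene were 9.02 to 15.6% in skin, stayed out of library sizes. Genes with at least 10 counts over the libraries of a fit were tested on the deposited counts with edgeR 4.0.16 (TMM, quasi-likelihood test, Benjamini-Hochberg adjustment) in R 4.3.3, at adjusted p-values of 0.05 in skin and for the difference between tissues, and 0.1 in ganglia. Each tissue was fitted on its own 7 libraries, and the difference between tissues as an interaction over 14. The procedure was tested on simulated data. The settings and outcome of that test are not given here, so no conclusion about the skin fit is drawn from it. Replicates within a group differed by more than sampling noise. Alternatives were RLE factors, DESeq2 1.42.0, filterByExpr, no filter, a replicate block, other controls, all 13 vehicle skin libraries and each library left out. Library totals without a factor were added after seeing the data.

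Named genes were the antigens, up to 12 called genes per direction with the smallest p and no overlap, per list up to 4 called members or else the 2 with the highest level, and the 10 lower genes with the smallest p; 1 gene that the rule names is not reported here. The 32 lists and these rules were chosen with earlier results of these data known. Floors cover counting error only.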

Additional observations from a re-analysis of the deposited data

Results flagged for a closer look

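Some values stood far from the other aGr1 skin libraries, with a gap to the nearest library above Dixon's 95% critical value for 4 samples. Of 32 lists, the summed levels of 2 did: neutrophil precursor granule genes (gap over range 0.988, aGr1 library 4 high, through Ltf) and glucocorticoid-responsive genes (0.846, aGr1 library 1 high, at 1999.8, 1532, 1481 and 1561 cpm). Of 86 named genes, 4 did: Ltf (0.997, library 4 high), Myh4 (0.976, library 1 low), Pip (0.864, library 3 low) and Fabp4 (0.838, library 1 high). Chance flags about 1 in 20 groups.

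The effect of aGr1 differed between skin and ganglia, by the interaction test, for 805 genes. Among 86 named genes it differed for 12, as the skin log2 fold change minus that of the ganglia: Smr3a (15.74), Bpifa2 (14.86), Klk1 (14.67), Dcpp3 (12.94), 2310057J18Rik (12.64), Lpo (11.33), Dnase1 (10.45), Amy1 (9.94), Igkc (7.85), Tcf7l2 (-0.82), Gm42959 (-1.60) and E030032P16Rik (-1.94). Klk1 had at most 3 counts in the PBS skin libraries, so its value depends on the prior count of the fit. For Smr3a, Bpifa2, Klk1, Dcpp3, 2310057J18Rik, Lpo and Igkc the difference exceeded the skin log2 fold change. For Bpifa2 this came with a negative fold change in the ganglia, where its levels were low. These sizes are therefore not the skin effect alone. All of the 12 but Igkc were named by their skin test result in these same libraries, so passing here is no separate support.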

How the results depend on the processing

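The 37 skin calls were 37 with RLE factors and with filterByExpr. All 37 were kept, among more genes, without a filter (82), with DESeq2 (1149, of them 1036 higher), with library totals (147, of them 142 higher), with the spread of all 13 vehicle skin libraries (309, 294 higher), with PBS and uninjected libraries pooled (5188, 2321 higher and 2867 lower) and with uninjected libraries in place of PBS (11639, 5736 higher and 5903 lower); the cause was not tested. Leaving out 1 library gave 0 to 455 calls in skin, 1049 to 8029 in ganglia (3622 in the report) and 22 to 2327 for the difference between tissues. The leave-outs that gave 0 in skin were each PBS library and aGr1 library 1. For the difference between tissues, DESeq2 gave 2513 and library totals 1580; higher against lower calls were 272 and 533 with TMM, 314 and 369 with RLE, and 209 and 1371 with library totals.

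A replicate block changed the count to 1557 in skin (1169 higher and 388 lower), the 37 among them, and to 2144 in ganglia, and it turned the split of the difference between tissues to 565 higher and 366 lower. The numbers were not taken as pairs: same-numbered libraries had correlated deviations of 0.039, 0.291 and 0.25 in skin and -0.007, -0.01 and 0.006 in ganglia. In skin, aGr1 libraries 1 to 3 each correlated best with the PBS library of their own number, but PBS library 1 correlated best with aGr1 library 3.

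Among 86 named genes, some that had not passed the test turned the sign of their log2 fold change. Library totals gave Acta1 -0.43, Car3 -0.12, Col3a1 -0.39, Cxcl12 -0.35, F13a1 -0.012, Fabp4 -0.42, Il3ra -0.15, Krt10 -0.22, Krt77 -0.24, Lta4h -0.33, Ly6c1 -0.20, Mbp -0.21, Mcpt4 -0.32, Mgl2 -0.17, Myh4 -0.13, Nr1d2 -0.35, Ptgs1 -0.28, Tap1 -0.14 and Tef -0.20. Uninjected libraries in place of PBS gave Asprv1 0.31, C4b -0.084, Cd200r3 1.03, Col3a1 -1.17, Cxcl12 -0.25, Cxcl14 0.032, Gm37720 0.12, H2-Aa -0.30, Klf4 0.016, Lta4h -0.62 and Nkg7 -0.20. PBS and uninjected libraries pooled gave Asprv1 0.11, Cd200r3 0.40, Col3a1 -0.88, Cxcl12 -0.16 and Lta4h -0.43. The replicate block gave Col3a1 -0.060, Fabp4 -0.0025 and Kit 0.15. The spread of all 13 libraries gave Acta1 -0.036, Col3a1 -0.034 and Fabp4 -0.027. DESeq2 gave Il1r2 0.0028. RLE factors gave Il1r2 0.0028. The filter of filterByExpr gave Acta1 -0.0030. When 1 library was left out, Acta1 ranged from -0.36 to 0.77, Col3a1 from -0.21 to 0.14, Fabp4 from -0.35 to 0.25, Il13ra1 from -0.17 to 0.030, Il1r2 from -0.23 to 0.25, Kit from -0.39 to 0.17, Krt10 from -0.073 to 0.55, Krt77 from -0.084 to 0.60, Mcpt4 from -0.16 to 0.56, Mgl2 from -0.0019 to 0.72, Nr1d2 from -0.069 to 0.51 and Ptgs1 from -0.12 to 0.52. The cause was not tested.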
